A study of Mus musculus with 12 samples.

Results

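The genes described here encode the protein subunits of the mitochondrial ribosome whose symbols begin with Mrpl (large subunit) or Mrps (small subunit). They were taken by symbol (Mrpl or Mrps, a number and at most 1 letter) from an mRNA table of 4T1 tumours, with a mean log2 value over the libraries of at least 4. All 78 symbols of that form in the table passed this level, 49 of the large and 29 of the small subunit, out of 14098 genes that passed it. The filter removed no member, and the lowest mean among them was 6.73. 4T1 is a mouse mammary carcinoma line, and every tumour was grown in Balb/c mice and had been inoculated 35 days earlier. The stress group (3 libraries) came from mice that underwent restraint stress lasting 2 hours each day for 28 consecutive days, and the control group (3 libraries) from untreated mice that bore the same tumour. Each library holds RNA of a whole tumour, so fewer cells of a type and less RNA per cell cannot be told apart. The labels do not say that the tumours of a group came from separate mice, and p-values measure only the spread between these libraries.

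Mitochondria keep a ribosome of their own, which translates the few proteins encoded in mitochondrial DNA. These proteins are core subunits of the respiratory chain and of ATP synthase. The RNA of this ribosome comes from the mitochondrial genome, while its proteins are encoded in the nucleus, made in the cytosol and imported. The small subunit decodes the mRNA and the large subunit forms the peptide bond. Part of the proteins have counterparts in bacterial ribosomes and the others are particular to mitochondria. Nuclear genes of mitochondrial function are known as targets of the transcription factors NRF1, GABP (which binds the ETS motif) and YY1.

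Some of the members' promoters carry letters that these 3 factors are known to bind, and 5 examples are shown for members described below, with the motif in capitals. The sequences are from RefSeq on GRCm38.p6, and each is a stretch of 30 bases, 5′ to 3′ on the gene's own strand, that ends at or before the RefSeq start site.
Mrpl12, NRF1 motif, chr11:120484546-120484575 on the plus strand: tattgtctccGCGCCTGCGCgtcgcaccgc
Mrpl51, ETS motif, chr6:125192099-125192128 on the plus strand: caggggctaaaCCGGAAGtatttgactgga
Mrps18a, ETS motif, chr17:46110967-46110996 on the plus strand: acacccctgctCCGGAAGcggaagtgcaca
Mrps18c, ETS motif in reverse complement, chr5:100798592-100798621 on the plus strand: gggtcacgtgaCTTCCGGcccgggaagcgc
Mrps11, YY1 motif in reverse complement, chr7:78783013-78783042 on the plus strand: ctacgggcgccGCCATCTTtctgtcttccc
GENCODE M21 places the first base of Mrpl51 and of Mrps18a further upstream, so the Mrpl51 stretch and part of the Mrps18a stretch lie within the GENCODE gene.

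RefSeq promoter windows, which run from 250 bases before to 50 after a start site, matched 69 of the 78 members (75 windows). Those without a window were Mrpl13, Mrpl15, Mrpl19, Mrpl38, Mrpl4, Mrpl54, Mrps28, Mrps34 and Mrps35. The ETS motif CCGGAAG, searched on both strands, stood in 34.7% of the members' windows, against 16.1% of the 13522 windows of all genes tested and 8.86% of all 32851 windows. The YY1 motif AAGATGGC stood in 16% of the members' windows, against 4.08% and 2.75%. The NRF1 motif (GCGC, any base, then TGCGC) stood in 17.3%, against 9.13% and 4.60%. Most windows thus held none of a given one of these motifs, and 35 of the 69 members had an NRF1 or ETS match. In the nuclear genes of the respiratory chain the NRF1 share was 26.9% and the ETS share 23.9%, and in the cytosolic ribosomal protein genes these were 5.97% and 35.8%. The ETS motif was present in 40.7% of the small and 31.2% of the large subunit windows, and the NRF1 motif in 11.1% and 20.8%. The E-box CACGTG (9.33%, against 9.39% of windows of genes tested), CCAAT (40.0%, against 37.5%) and the cyclic AMP response motif TGACGTCA (2.67%, against 2.88%) stood at about the shares of all genes tested. The SP motif GGGCGG stood in 52.0%, against 59.7%. No motif is part of another, but the end of the ETS motif and the start of the YY1 motif share the letters AAG, so their matches can overlap. A match is a description of the letters in the window. These shares were not tested against each other.

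**Figure D1:**
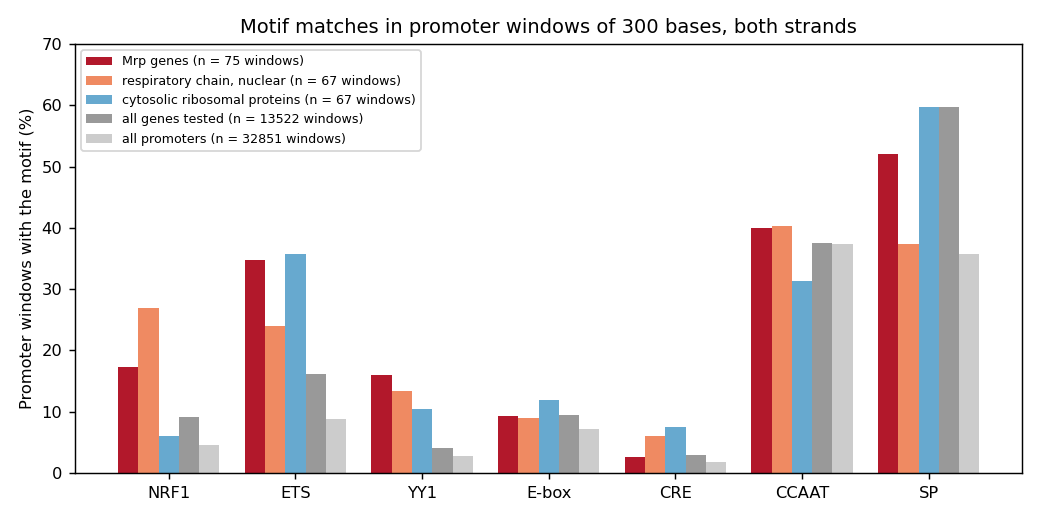
Share of promoter windows of 300 bases that hold each motif on either strand (vertical axis, percent), for the Mrp genes, respiratory chain genes, cytosolic ribosomal protein genes, all genes tested and all promoters (bars). The Mrp genes stand at 34.7% for ETS and 16% for YY1, above the 16.1% and 4.08% of all genes tested.

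In the stressed tumours no mitochondrial ribosomal protein gene passed the test, and the members as a whole lay slightly lower. By limma's moderated test with Benjamini-Hochberg adjustment over all 14098 genes, 0 of 78 members had an adjusted p below 0.05, and the smallest was 0.183. Of all genes tested 0.0355% were called, 0.0142% lower and 0.0213% higher. At an unadjusted p below 0.05, 8 members were lower (10.3%) and 0 higher, against 9.15% of all genes lower and 8.26% higher. The share of lower members is thus near that of all genes. The log2 difference, stress minus control, was below 0 in 56 members and above 0 in 22, with a median of -0.033 and a range from -0.24 (Mrpl12) to 0.12 (Mrpl3). Over all genes tested the median was 0.001 and 49.4% were lower. The differences were small: 56 of 78 lay within 0.1 of 0, and only Mrpl12 and Mrpl16 exceeded 0.2 in size.

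The groups did not overlap in 14 members, which were all lower in stress, and no member had all stress libraries above all control libraries. Among all genes tested 12.3% were lower and 12.1% higher without overlap, so the lower count of 17.9% is above the first share and the higher count of 0 is below the second. The error limits what these libraries can show. Standard errors of the members' differences ran from 0.0497 to 0.174 with a median of 0.0696. The 95% intervals reached from -0.55 (Mrpl19) to 0.30 (Mrpl34), and for all 78 members they lay within a 1.5-fold change in either direction (0.585 on the log2 scale). The sequencing depth behind these values is unknown.

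**Figure D2:**
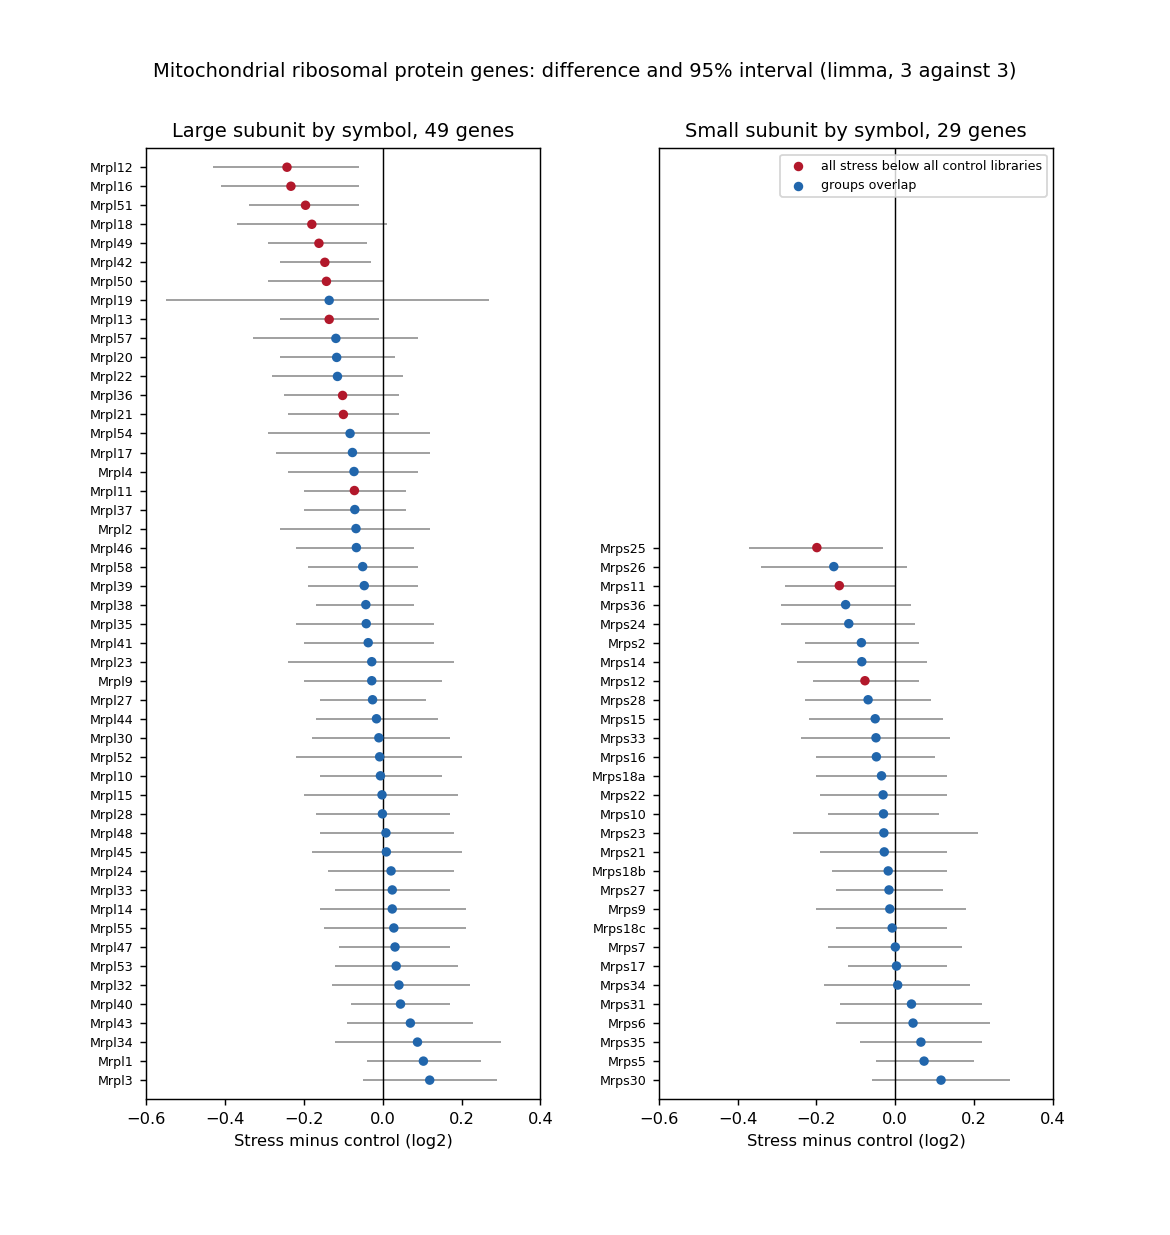
Log2 difference, stress minus control (horizontal axis), with its 95% interval (lines) for the 49 large and 29 small subunit genes, sorted by size. The 14 genes whose groups do not overlap are red and all are lower in stress, and 70 of 78 intervals hold 0.

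Large and small subunit genes stood close to each other. The median difference was -0.042 over the 49 Mrpl genes, of which 35 were lower, and -0.030 over the 29 Mrps genes, of which 21 were lower. The large minus small median was -0.012. A related measure, taken in each library, is the large minus small gap between the subunits' median deviations from the genes' own means. Its pooled within-group standard deviation over libraries was 0.0221. It is not the same quantity as the -0.012, so it gives only the scale of the spread between libraries. Non-overlapping groups were counted in 11 large subunit genes (22.4%) and 3 small subunit genes (10.3%), which lie above and below the 12.3% of all genes tested that were lower without overlap. There was an unadjusted p below 0.05 in 6 large (12.2%) and 2 small subunit genes (6.9%), all lower in stress. Of all genes tested 9.15% were lower at that level, and the subunit shares were not tested against it. The symbol does not always give the place of the protein: in structures of the mammalian mitoribosome the products of Mrps18a and Mrps30 sit in the large subunit, and that of Mrps36 has been assigned to the 2-oxoglutarate dehydrogenase complex instead. With those genes placed accordingly the medians were -0.037 for 51 large and -0.029 for 26 small subunit genes. The 46 members with a bacterial counterpart had a median of -0.029 (33 lower) and the 32 without one a median of -0.036 (23 lower), a division drawn up after the values were seen.

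The members' levels varied between libraries of the same group. In each library the median was taken of the members' deviations from their own mean over the 6 libraries. It was 0.055, -0.028 and 0.028 in control libraries 1 to 3 and -0.053, -0.045 and 0.038 in stress libraries 1 to 3. Stress library 3 thus lay among the controls, and control library 2 lay on the side of the other stress libraries. In control library 1, 61 of 78 members were above their own mean, and in stress library 3 it was 51. In stress libraries 1 and 2 there were 17 and 19. Control library 1 was the highest of the 6 for 28 members and stress library 3 for 21, while stress library 2 was the lowest for 23. In 19 members control 1, control 3 and stress 3 were all above the other 3 libraries. Both subunits shared this order of the libraries in its outline, with stress library 3 at 0.051 for the large and 0.017 for the small subunit. Over all genes tested the same medians lay between -0.004 and 0.000. The within-group standard deviation of the members' library median was 0.0465, larger than the median difference between groups.

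**Figure D3:**
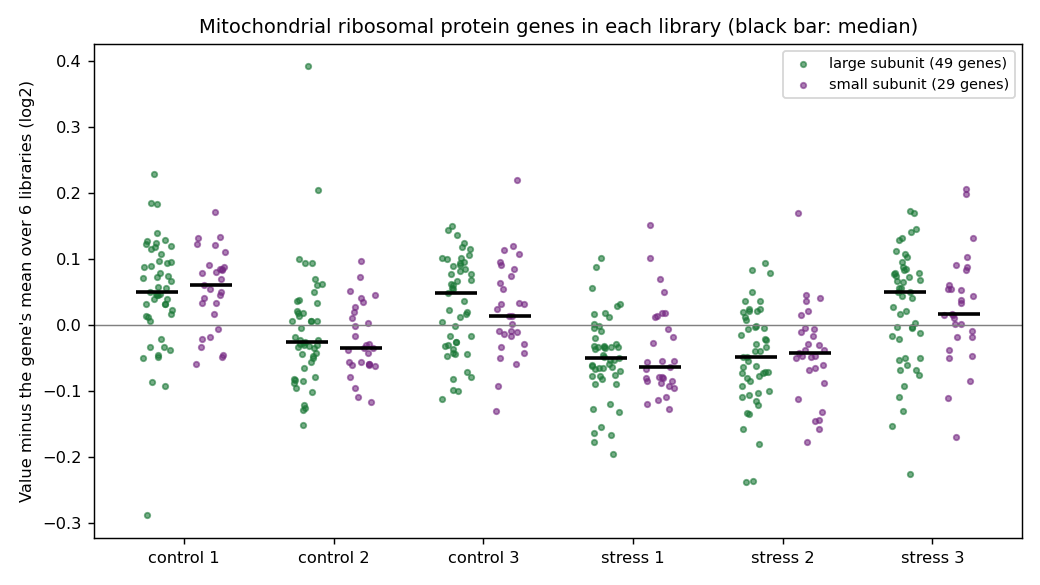
Each point is 1 gene's log2 value in a library minus its mean over the 6 libraries (vertical axis), for the large (green) and small (purple) subunit, with medians as black bars. Stress 1 and stress 2 lie below 0 and stress 3 lies above it, near control 1 and control 3.

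Single libraries moved the median. Without control library 2 it was -0.065, with 60 of 78 members lower, and without stress library 3 it was -0.060, with 65 lower. Without control library 2 the groups did not overlap in 31 lower and 2 higher members, and without stress library 3 in 28 lower and 1 higher. Among all genes tested 17.4% were then lower and 17.8% higher without overlap in the first case, and 17.0% and 16.9% in the second. In the other 4 cases the lower members without overlap numbered 14 to 17 of 78 and the higher ones 2 to 5, with 15.6% to 18.6% of all genes lower and 15.4% to 18.5% higher. Without control library 1 the median was -0.022, with 45 lower, and without stress library 1 it was -0.023, with 47 lower. In none of these fits was a member called.

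Among the large subunit genes the 6 with the smallest p were all lower in the stressed tumours. Mrpl12 encodes the stalk protein that recruits translation factors, the mitochondrial form of bacterial L7/L12. It stood at 9.51, 9.48 and 9.53 in control libraries 1 to 3 and at 9.22, 9.15 and 9.43 in stress libraries 1 to 3 (log2 levels). All stress values were below all control values, though stress 3 lay near the controls. The difference was -0.24 ± 0.0784 (SE; 1.18-fold lower, limma adjusted p = 0.197). Mrpl12 lies on chromosome 11 (120484613 to 120489065, plus strand).

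Mrpl16, on chromosome 19 (11770391 to 11774960, plus strand), encodes a protein with a bacterial counterpart close to the peptidyl transferase centre. Its log2 levels were 7.90, 8.01 and 7.86 in control and 7.73, 7.75 and 7.58 in stress. The groups did not overlap, and here stress 3 was the lowest library, unlike in Mrpl12. The difference was -0.23 ± 0.075 (SE, limma adjusted p = 0.197).

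Mrpl51, on chromosome 6 (125191801 to 125196269, plus strand), had the smallest p of all members. The protein is one of those without a bacterial counterpart. Its log2 levels were 9.29, 9.21 and 9.25 in control and 9.08, 8.97 and 9.10 in stress, and the groups did not overlap. The difference was -0.20 ± 0.0597 (SE; 1.15-fold lower, limma adjusted p = 0.183).

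Mrpl49 and Mrpl42 encode further large subunit proteins without a bacterial counterpart. Mrpl49 (chromosome 19, 6053622 to 6057785, minus strand) had log2 levels of 9.28, 9.26 and 9.18 in control and 9.07, 9.06 and 9.11 in stress, a difference of -0.16 ± 0.0535 (SE, limma adjusted p = 0.204). Mrpl42 (chromosome 10, 95480805 to 95501940, minus strand) had 9.99, 9.97 and 9.96 in control and 9.85, 9.86 and 9.77 in stress, a difference of -0.15 ± 0.0497 (SE, limma adjusted p = 0.211). Both had tight groups that did not overlap.

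Mrpl13, on chromosome 15 (55534094 to 55557748, minus strand), encodes a protein with a bacterial counterpart. Its log2 levels were 10.21, 10.11 and 10.16 in control and 10.03, 9.97 and 10.07 in stress, a difference of -0.14 ± 0.053 (SE, limma adjusted p = 0.255). The highest stress library lay just under the lowest control library. The other 5 large subunit genes without overlap were Mrpl50, Mrpl18, Mrpl21, Mrpl36 and Mrpl11, with differences between -0.18 (Mrpl18) and -0.07 (Mrpl11). On the other side Mrpl3 (0.12, limma adjusted p = 0.428) and Mrpl1 (0.10, limma adjusted p = 0.421) had the largest positive differences of the large subunit, and their groups overlapped. These members are named for their values.

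Among the small subunit genes Mrps25 and Mrps11 had an unadjusted p below 0.05. Mrps25, on chromosome 6 (92169525 to 92184033, minus strand), encodes a protein without a bacterial counterpart. Its log2 levels were 9.53, 9.47 and 9.68 in control and 9.38, 9.41 and 9.29 in stress, and the groups did not overlap. The difference was -0.20 ± 0.0714 (SE, limma adjusted p = 0.228). The gene overlaps Nr2c2, a nuclear receptor gene on the opposite strand, and 68.9% of the 31-base words of its transcripts also occur in Nr2c2 transcripts, so the division of reads between both genes is uncertain.

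Mrps11, on chromosome 7 (78783119 to 78792989, plus strand), encodes a protein of the platform that has a bacterial counterpart. Its log2 levels were 7.99, 7.93 and 8.03 in control and 7.83, 7.88 and 7.80 in stress, a difference of -0.14 ± 0.0604 (SE, limma adjusted p = 0.286). Its 5′ end overlaps that of Mrpl46, a large subunit gene on the opposite strand. Mrpl46 stood 0.07 lower (-0.07 ± 0.0631, limma adjusted p = 0.609), with groups that overlapped.

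The next 4 small subunit genes by p did not reach an unadjusted p below 0.05, and their groups overlapped. Mrps26 had log2 levels of 8.99, 8.84 and 8.97 in control and 8.73, 8.70 and 8.91 in stress (-0.16 ± 0.0786, limma adjusted p = 0.352). Mrps36 had 6.97, 6.89 and 7.0 in control and 6.80, 6.76 and 6.93 in stress (-0.13 ± 0.0705, limma adjusted p = 0.395). Mrps24 had 7.61, 7.56 and 7.58 in control and 7.44, 7.38 and 7.58 in stress (-0.12 ± 0.0719, limma adjusted p = 0.429). In these 3 genes stress library 3 stood within the range of the controls. Mrps30, whose product sits in the large subunit, had 8.67, 8.63 and 8.60 in control and 8.71, 8.65 and 8.89 in stress (0.12 ± 0.0748, limma adjusted p = 0.455), and here stress library 3 stood above all others. With the mean level of 14 skeletal muscle markers as a covariate the Mrps30 difference was -0.001, and without stress library 3 it was 0.046. The Mrps24 difference was -0.073 without stress library 2.

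**Figure D4:**
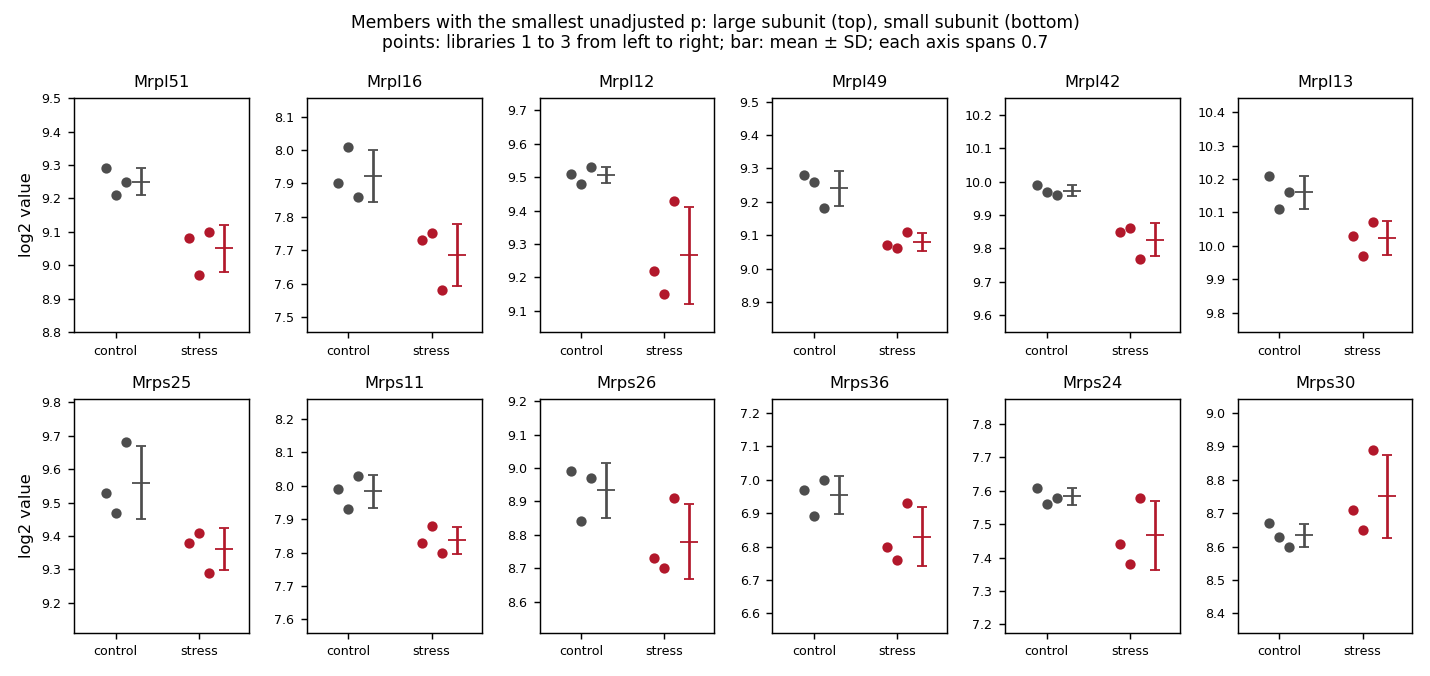
Log2 values (vertical axis, each spanning 0.7) of the 6 large (top) and 6 small (bottom) subunit genes with the smallest p, with libraries 1 to 3 as points and mean ± SD as bars (n = 3 per group). In the 6 upper panels and in Mrps25 and Mrps11 the stress points lie below the control points, and in Mrps26, Mrps36, Mrps24 and Mrps30 the groups overlap.

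The 3 paralogs of bacterial protein S18 are encoded by Mrps18a, Mrps18b and Mrps18c, of which the last is the form in the place of the bacterial protein. Mrps18a (chromosome 17, 46110986 to 46128910) had log2 levels of 8.89, 8.71 and 8.76 in control and 8.68, 8.81 and 8.76 in stress. Mrps18b (chromosome 17, 35910379 to 35916389) had 9.35, 9.42 and 9.36 in control and 9.29, 9.33 and 9.46 in stress. Mrps18c (chromosome 5, 100798627 to 100804471) had 7.66, 7.67 and 7.61 in control and 7.58, 7.68 and 7.66 in stress. In Mrps18b and Mrps18c 31.6% and 34.5% of the 31-base words of the transcripts also occur in other genes. The groups overlapped in all 3, and the differences were -0.03, -0.02 and -0.01. The 95% intervals ran from -0.20 to 0.13, from -0.16 to 0.13 and from -0.15 to 0.13 on the log2 scale.

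The ends of the range of deposited values, taken as they are, were held in the large subunit by Mrpl24 (mean 10.13) and Mrpl48 (mean 6.73). In the small subunit they were held by Mrps9 (mean 9.63) and Mrps36 (mean 6.89). Mrpl24 had log2 levels of 10.22, 10.01 and 10.13 in control and 10.16, 10.06 and 10.21 in stress, a difference of 0.02. Mrpl48 had 6.77, 6.78 and 6.63 in control and 6.64, 6.78 and 6.78 in stress, a difference of 0.01. Mrps9 had 9.72, 9.52 and 9.66 in control and 9.55, 9.56 and 9.76 in stress, a difference of -0.01. The groups overlapped in each of them, and their limma adjusted p was 0.903, 0.970 and 0.951.

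Per kilobase of transcript (the mean log2 value minus log2 of the median length of the gene's protein-coding transcripts in kilobases), the members' median was 8.31. It was 8.63 for large and 8.21 for small subunit genes. Mrpl42 (10.50) and Mrpl33 (10.21) were highest and Mrps16 (5.92) and Mrpl57 (5.47) lowest on this scale. The scale assumes that the deposited values were not already divided by length, which is unknown. The transcript mix behind each deposited value is also unknown, and the order on this scale is therefore approximate. Library values of single members spread little: the median range over the 6 libraries was 0.223, from 0.092 (Mrps27) to 0.687 (Mrpl19). For all 7205 genes tested whose means lay in the same span it was 0.277, and for the 77 cytosolic ribosomal protein genes 0.346. Mrpl19 stood apart, with log2 levels of 8.32, 9.0 and 8.71 in control and 8.71, 8.37 and 8.54 in stress. Its transcripts share 37.9% of their 31-base words with other genes, most with Gcfc2, a gene on the opposite strand that it overlaps.

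Shared sequence limits how well the reads of these genes can be assigned. Words of 31 bases were counted that occur both in a member's GENCODE M21 transcripts and in transcripts of another gene, on either strand. There were none in 16 members, and in 29 members they made up 10% or more. For 21 members the gene that shared most words was a pseudogene. More than 50% of the words were shared in Mrpl53, Mrps25 and Mrps34. The 49 members with less than 10% shared words had a median difference of -0.043 (37 lower), and the 29 others one of -0.026 (19 lower). The pseudogene Mrpl23-ps1 stood at 8.26 in the table, above Mrpl23 itself at 7.30, and the Mrpl23 difference of -0.03 rests on reads that may be shared. Mrps6, a small subunit gene with a difference of 0.05, overlaps the transporter gene Slc5a3 on the same strand. In all 23 members overlapped a protein-coding gene on the opposite strand, and no label says whether the counting used strand.

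The members are scattered over the genome. Of these genes 11 lie on chromosome 11 (14.1%, against 8.27% of protein-coding genes tested) and 8 on chromosome 17 (10.3%, against 4.86%). None lies on chromosomes 12, 18 or X, which hold 3.27%, 2.56% and 3.17% of the protein-coding genes tested. A protein-coding gene that starts within 1000 bases upstream on the opposite strand, so that both genes may share a promoter region, was found for 18 members (23.1%). The share was 9.54% over 13497 protein-coding genes tested, 24.4% for the nuclear respiratory chain genes and 10.5% for the cytosolic ribosomal protein genes. Of the 18 partners 17 were tested, and 8 of them were lower in stress, with a median difference of 0.021. Member and partner lay on the same side of 0 in 6 of 17 pairs. Mrpl49 and its partner Fau, which starts 59 bases away and encodes a cytosolic ribosomal protein, differed in sign (-0.16 and 0.11). Mrps12, a decoding centre protein, and its partner Sars2, the mitochondrial seryl-tRNA synthetase, start 172 bases apart and were both lower (-0.08 and -0.11), each without overlap of the groups and with limma adjusted p = 0.527 and 0.343. These pairs were picked for their values.

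The members' transcripts are short, with a median of 1052 bases against 2225 for all genes tested. By transcript length, the median difference of all genes was 0.000 for 865 genes tested with transcripts under 700 bases, 0.001 for 1442 genes from 700 to 1000 bases and -0.010 for 1841 genes from 1000 to 1500 bases. The members in these ranges had medians of -0.028 (16 genes), -0.060 (20 genes) and -0.030 (19 genes). From 1500 to 2500 bases both medians were near 0, at 0.001 for 3422 genes and -0.002 for 11 members, of which 6 were lower. From 2500 to 4000 bases they were 0.000 for 3409 genes and -0.042 for 9 members, and from 4000 bases 0.011 for 2500 genes and -0.156 for 3 members.

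The other genes of mitochondrial translation gave no called gene. The subunits with other symbols (Dap3, Chchd1, Ptcd3, Aurkaip1 and Gadd45gip1) had 4 of 5 lower and a median of -0.041. In this list Chchd1 (-0.10, limma adjusted p = 0.421) and Gadd45gip1 (-0.08, limma adjusted p = 0.591) had the smallest p. Translation factors, counted together with the membrane insertase Oxa1l, were evenly split, with 6 of 12 lower and a median of 0.004. Here Oxa1l (0.18, limma adjusted p = 0.292) and the ribosome recycling factor Mrrf (0.13, limma adjusted p = 0.322) led, and both had all stress libraries above all controls.

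Genes of mitoribosome assembly and rRNA modification were split as evenly, with 12 of 24 lower and a median of 0.002. The rRNA methyltransferase Mrm3 (-0.18, limma adjusted p = 0.258) and the assembly factor Mettl17 (0.10, limma adjusted p = 0.443) had the smallest p. Mitochondrial aminoacyl-tRNA synthetases, counted together with the glutamyl-tRNA amidotransferase subunits Qrsl1, Gatc and Gatb, had 10 of 20 lower and a median of -0.006. These subunits are not synthetases and were all lower (-0.22, -0.12 and -0.06), so the even split is that of the joint list. Among them Vars2, for valine, was 0.26 higher (limma adjusted p = 0.182) and Mars2, for methionine, stood at -0.17 (limma adjusted p = 0.197). The list of mitochondrial transcription and RNA maintenance had 4 of 11 lower and a median of 0.031, with the tRNA processing enzyme Elac2 at -0.16 (limma adjusted p = 0.289) and the mitochondrial DNA packaging factor Tfam at -0.13 (limma adjusted p = 0.353).

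Of the nuclear regulators 3 of 9 were lower, with a median of 0.043. Pprc1, a coactivator of NRF1 related to PGC-1, had log2 levels of 11.39, 11.26 and 11.36 in control and 10.88, 11.05 and 10.90 in stress. All stress values were below all control values. The difference of -0.39 ± 0.0639 (SE, limma adjusted p = 0.0947) did not pass the threshold. Gabpa, the ETS factor of GABP, stood 0.16 higher (limma adjusted p = 0.206), also without overlap. The 13 protein-coding genes of the mitochondrial genome, whose mRNAs this ribosome translates, had 10 lower and a median of -0.079, with mt-Nd3 at -0.57 (limma adjusted p = 0.0618) and mt-Nd5 at -0.28 (limma adjusted p = 0.159). With single libraries left out, the median of these 13 genes ran from -0.141 (without stress library 2) to -0.028 (without stress library 3, 7 lower).

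The respiratory chain and the cytosolic ribosome are the families set beside the members, and the differences between families were not tested. Of 78 nuclear genes of the respiratory chain and ATP synthase 56 were lower, with a median of -0.045, and their library medians were 0.053, -0.004 and 0.039 in control and -0.040, -0.058 and 0.034 in stress. The leading genes were the ATP synthase subunit Atp5f1 (-0.15, limma adjusted p = 0.180) and the complex I subunit Ndufa5 (-0.22, limma adjusted p = 0.201). Of 77 cytosolic ribosomal protein genes 72 were higher, with a median of 0.110, and the leading genes were Rps18 (-0.25, limma adjusted p = 0.131) and Rpl15 (0.19, limma adjusted p = 0.166). Their library medians were 0.015, -0.114 and -0.057 in control and -0.002, -0.056 and 0.218 in stress, so stress library 3 was high in both ribosomal families. Without that library the cytosolic median was 0.022 and the mitochondrial one -0.060. With the muscle covariate the cytosolic median was -0.031, a change of sign.

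**Figure D5:**
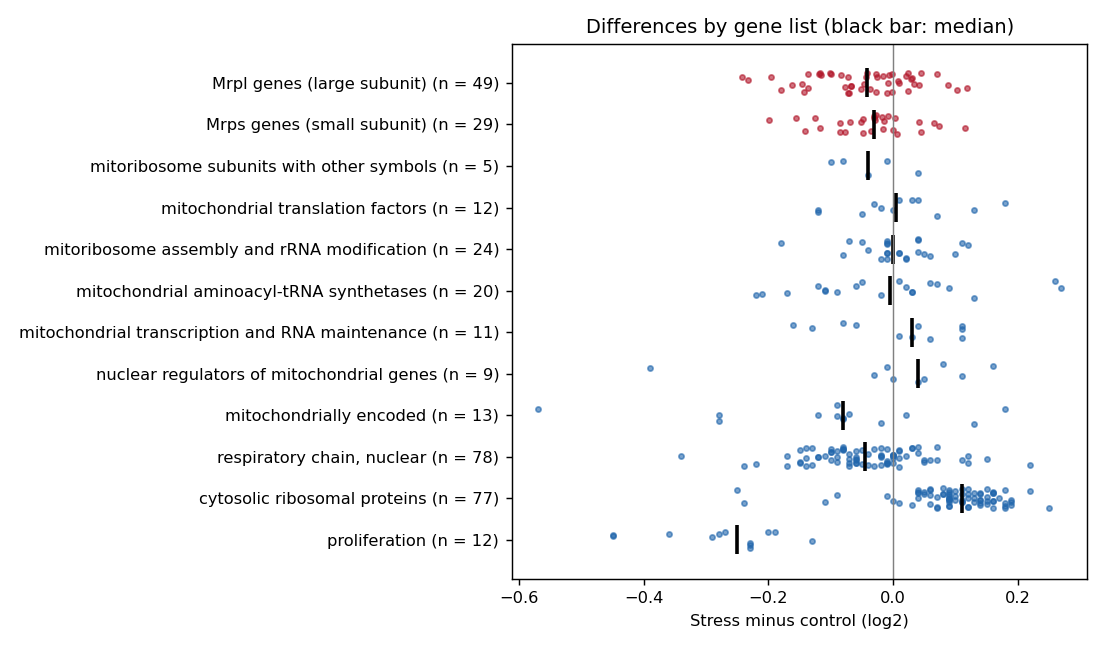
Log2 differences, stress minus control (horizontal axis), of single genes (points) by gene list, with medians as black bars. The Mrpl and Mrps genes centre at -0.042 and -0.030, near the respiratory chain genes at -0.045, while the cytosolic ribosomal protein genes centre at 0.110.

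Marker lists of several other cell types differed in level between the groups, though no gene of them was called. Of the muscle markers 14 of 14 were lower in stress, with a median difference of -0.781. Their mean log2 level was 8.40, 9.26 and 9.46 in control and 8.48, 8.63 and 7.40 in stress, so control 1 lay with stress 1 and 2 and the groups overlapped. With that mean as a covariate the members' median was -0.088 and 67 of 78 were lower, with no member called. Neutrophil markers were higher in 8 of 8 tested genes (median 0.568, mean log2 levels of 7.27 to 7.63 in control and 7.81 to 8.31 in stress), while Ly6g, Mpo, Elane and Camp were below the level for testing. Fibroblast markers were lower in 8 of 9 (median -0.494, 11.35 to 12.12 in control and 11.15 to 11.41 in stress, which overlap), endothelial markers in 8 of 8 (median -0.350, 9.31 to 9.54 and 9.01 to 9.16) and adipocyte markers in both tested genes (median -0.707, 8.0 to 8.75 and 7.45 to 7.92). The adipocyte markers Adipoq, Plin1, Cidec and Lep were below the level for testing. Macrophage (5 of 7 lower, median -0.045) and T cell markers (6 of 6 lower, median -0.116) overlapped between groups in their mean level. The epithelial markers of the tumour cells were present, with mean log2 levels of 11.54 to 11.85, and split (3 of 7 lower, median 0.035). Proliferation genes were lower in 12 of 12 (median -0.249, 10.95 to 11.05 in control and 10.64 to 10.79 in stress). By p the leading genes were Mb (-0.55, limma adjusted p = 0.175) and Tnni2 (-0.27, 0.197) of muscle, Csf3r (0.62, 0.0881) and Clec4e (0.51, 0.105) of neutrophils, and Thy1 (-0.49, 0.0769) and Fap (-0.66, 0.129) of fibroblasts, with the limma adjusted p second in each pair of values. In the same order of values they were Kdr (-0.55, 0.106) and Tek (-0.39, 0.136) of endothelium, Cd68 (0.22, 0.131) and Adgre1 (-0.13, 0.609) of macrophages, and Cd8a (-0.29, 0.561) and Cd8b1 (-0.15, 0.660) of T cells. For adipocytes they were Fabp4 (-0.67, 0.146) and Lpl (-0.75, 0.209), for the epithelial list Krt7 (-0.36, 0.221) and Krt18 (0.10, 0.498), and for proliferation Rrm2 (-0.45, 0.0647) and Plk1 (-0.45, 0.0769). The part of these cell types in the members' values was not tested, apart from the values with the muscle covariate.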

How the data were processed

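The mRNA table deposited by the authors holds log2 values. The file is named as raw counts, but the values are fractional, run from -1.97 to 17.85 and are exactly 0 in all libraries or in none. Per the submitters' processing notes, bcl2fastq, the pseudoaligner kallisto (0.46.1) and the build mm10 were used. The transformation of its output to log2 was not given in the sources used here. Base 2 was taken from the size of the values, and the depth is unknown. Of 35453 rows, 12658 listed at 0 and 26 named by a date were left out. Stress was compared with control by limma 3.58.1 (R 4.3.3, variance trend, robust estimation, two-sided) on 14098 genes with a mean of at least 4. The fit was run on simulated data with independent noise for each gene and no shifts shared by a library. How often changes as small as the members' differences are called is not given here. An exact permutation test of 3 against 3 libraries cannot go below p = 0.1. Groups came from the sample titles. The miRNA libraries were not used here.

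Members and lists were chosen with earlier results of these data known. Values per library are given for the 6 genes of each subunit with the smallest p, those at the ends of the range of means and the Mrps18 paralogs, and also for Mrpl19 and Pprc1, chosen after their values were seen. Of each list the 2 genes with the smallest p are named. Positions, lengths and shared words came from GENCODE M21 (GRCm38, the assembly of mm10). Alternatives covered the filter, scaling, variance model, replicate block, a muscle covariate and single libraries left out.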

Additional observations from a re-analysis of the deposited data

How the results depend on the processing

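No member was called in any of the 13 alternative fits, and the smallest adjusted p of any member was 0.165, with the filter at a mean of 6. Over all genes the 5 calls became 11 with that filter (fewer genes tested), 8 after quantile normalization, 2 without a variance trend and robust estimation, and 0 with a muscle covariate, and they ran from 0 to 5 when single libraries were left out; the cause was not tested. The members' median of -0.033 was -0.021 after quantile normalization, where 49 of 78 were lower, and -0.088 with the muscle covariate, and it ran from -0.065 to -0.022 without single libraries. The large minus small median stayed between -0.014 and -0.002. Members without overlap of the groups, in either direction, numbered 10 of 78 after quantile normalization, all of them lower. There 12.1% of all genes were lower and 12% higher without overlap, so the lower count was near the share of all genes. They numbered 16 to 33 without single libraries, where 15.6% to 18.6% of all genes were lower and 15.4% to 18.5% higher. With all libraries these shares of all genes were 12.3% and 12.1%, since smaller groups separate more easily. Only the counts without control library 2 (33) and without stress library 3 (29) were more than 1.5 times the 14 of all libraries, a ratio that includes this effect of group size. This count has no value with a block or a covariate.

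With the replicate number as a block 0 genes were called, and the smallest limma adjusted p of a member was 0.221. Same-numbered libraries did not deviate together (correlations of -0.079, 0.082 and -0.018), and those with different numbers ran from -0.136 to 0.155. These values show no shared deviation, but they cannot tell whether the samples were paired by design. Of 247 values for 19 named members over these fits, 228 kept their direction and 19 changed sign, none of them called. With the muscle covariate Mrps30 was at -0.001, Mrpl24 at -0.073 and Mrpl48 at -0.05, and after quantile normalization Mrps18c was at 0.026. Without single libraries the range was 0.046 to 0.165 for Mrps30, -0.031 to 0.07 for Mrpl24, -0.039 to 0.054 for Mrpl48, -0.082 to 0.029 for Mrps9, -0.072 to 0.017 for Mrps18a, -0.068 to 0.019 for Mrps18b, -0.027 to 0.022 for Mrps18c and -0.031 to 0.116 for Mrps6.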
